A study of Mus musculus with 15 samples.

Results

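The adrenal glands of mice that had 7 days without dexamethasone after a 14 day course were compared with glands taken before any drug was given. The comparison holds 8 of the 15 arrays of the series, the 4 labelled recovery day 7 and the 4 labelled control, and covers all 21439 genes that could be named on the array. All mice were male wild-type C57BL/6J with a labelled age of 6 weeks, and dexamethasone is a synthetic glucocorticoid. The control group received no drug. The withdrawal group (3 arrays) was collected when the drug was stopped after 14 days, the day 3 group (4 arrays) 3 days later and the day 7 group 7 days later. Controls were collected before treatment, so drug, recovery and elapsed days cannot be told apart in any comparison with them. The labels call the arrays of a group biological replicates and do not say whether an array holds the glands of 1 animal or of several, so p-values measure the spread between these samples. The question addressed is how far the gland had returned to its starting state.

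Corticosterone is made in the zona fasciculata of the adrenal cortex under the drive of pituitary ACTH, which binds the melanocortin receptor MC2R together with its accessory protein MRAP and acts through cyclic AMP. Given from outside, a glucocorticoid suppresses ACTH, and the fasciculata shrinks and loses cells. When the drug is removed ACTH returns, the cortex regrows, and macrophages that take up lipid and cell debris are cells of such remodelling tissue.

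Most genes had a day 7 level close to control. Of 21439 genes, 3 were higher and 1 was lower at day 7 (limma, Benjamini-Hochberg adjusted p under 0.05), which is 0.0187% of genes tested. The higher genes were Gpnmb, Mmp12 and Tmem71, and the lower gene was Mrap. Without adjustment 693 genes were higher and 582 lower at p under 0.05 (5.95% of genes). That is near the share that chance alone gives at this threshold. The same model gave 534 higher and 387 lower genes for withdrawal against control (4.3%) and 19 higher and 9 lower for day 3 against control (0.131%). These 3 comparisons share the control arrays, so their counts stand side by side and are not independent.

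The 4 day 7 arrays were all above the 4 control arrays for 376 genes (1.75%) and all below them for 300 (1.4%). Chance alone separates 4 arrays from 4 at shares of this order. For a gene not called, groups that do not overlap are therefore weak evidence of a difference. Group means lay at least 2-fold from control for 302 genes at withdrawal, 104 at day 3 and 52 at day 7 (39 higher and 13 lower). The median absolute difference from control was 0.14 on the log2 scale at withdrawal, 0.11 at day 3 and 0.0966 at day 7. A gene that misses the threshold has not been shown to be back at its control level, so the confidence intervals were read as well. At day 7 the 95% interval of the difference lay within 1 log2 unit of 0, that is within 2-fold, for 20827 genes (97.1%), and within 0.5 log2 units for 15131 genes (70.6%). The same shares were 92.4% and 56.7% at withdrawal and 96.2% and 67.6% at day 3, so most genes met these limits in every group. The shares are over all genes, and the median gene level was 2.445 on the log2 scale. Genes with little signal can meet such limits whether or not the gland recovered. Shares among brighter genes alone are not given here. The median interval reached 0.283 log2 units to either side of the estimate at day 7 and at day 3. At withdrawal, with 3 arrays, it reached 0.306, and wider intervals by themselves lower the withdrawal shares. The intervals are without adjustment for the number of genes, and a call over all genes asks for more than an interval that excludes 0. Few arrays limit the precision of every comparison.

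**Figure D1:**
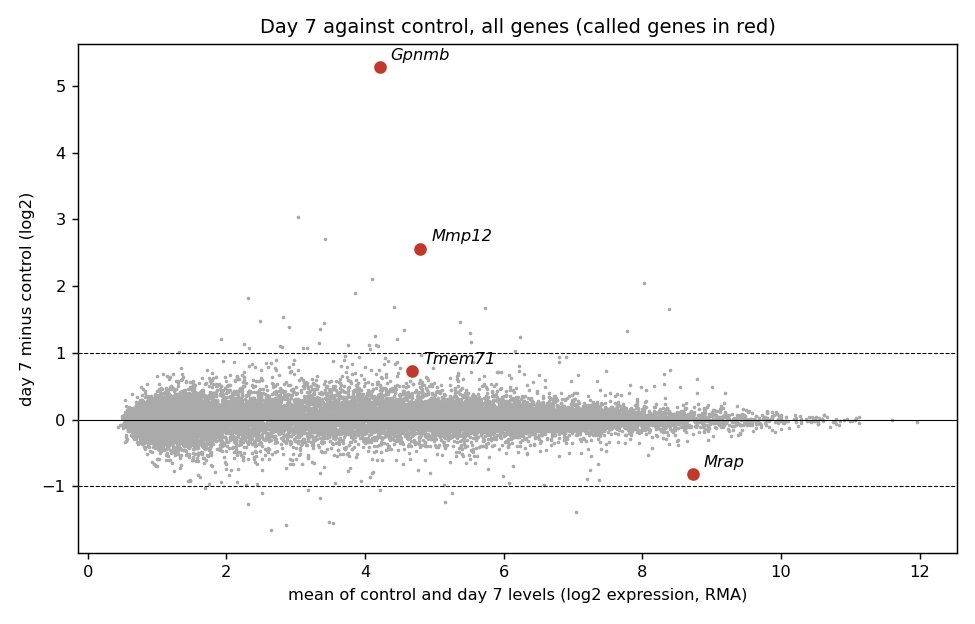
Difference between the day 7 and control means (vertical axis, log2) against the mean of both levels (horizontal axis, log2 expression) for 21439 genes, with the 4 genes past the threshold in red and dashed lines at 2-fold. Gpnmb stands at 5.28, Mmp12 at 2.56, Tmem71 at 0.73 and Mrap at -0.81, while most points lie within the dashed lines.

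Day 7 was also set against the end of treatment, a comparison that leaves the controls out. It gave 210 higher and 194 lower genes (limma, adjusted p under 0.05), 1.88% of genes. Between day 3 and day 7, 0 genes passed in limma, and 786 were higher and 730 lower at day 7 at an unadjusted p under 0.05.

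Markers of the labelled tissue were present in every array: summed linear levels of the 9 steroid synthesis genes ran from 5050 to 7609, and those of the 18 genes of medullary chromaffin cells from 7628 to 12152. Within-group mean correlations over genes ran from 0.988 to 0.991, 0 pairs of arrays held identical values, and array medians ran from 1.55 to 1.64. A level under 2 on the log2 scale is called the floor here, since most genes of absent cell types lie there: all 8 kidney markers and all 7 B cell markers had means under it in both groups. RNA came from whole glands, so fewer cells of a type and less RNA per cell cannot be told apart.

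RefSeq promoter windows (build GRCm38.p6, 250 bases before to 50 bases from the start site, 5′ to 3′) are shown for Gpnmb and Mmp12, the 2 called genes with the largest differences and the 2 for which a window was used here. Capitals mark the match to a searched motif. The Gpnmb window is chr6:49036268-49036567 on the plus strand, and the Mmp12 window, 1 of 2 listed for that gene, is chr9:7344147-7344446 on the plus strand.
Gpnmb: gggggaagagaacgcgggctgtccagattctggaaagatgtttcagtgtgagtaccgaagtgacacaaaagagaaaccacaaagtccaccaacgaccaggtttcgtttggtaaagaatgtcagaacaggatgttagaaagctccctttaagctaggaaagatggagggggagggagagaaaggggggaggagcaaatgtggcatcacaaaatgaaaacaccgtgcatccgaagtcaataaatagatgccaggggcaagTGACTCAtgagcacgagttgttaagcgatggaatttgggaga
Mmp12: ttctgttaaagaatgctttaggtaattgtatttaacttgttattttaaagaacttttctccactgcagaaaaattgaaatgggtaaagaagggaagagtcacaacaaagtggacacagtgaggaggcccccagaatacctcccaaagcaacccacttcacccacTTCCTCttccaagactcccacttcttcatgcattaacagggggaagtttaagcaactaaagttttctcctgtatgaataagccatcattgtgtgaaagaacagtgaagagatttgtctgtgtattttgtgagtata
Both strands were searched for AP-1 (TGANTCA), PU.1 (GAGGAA), MITF and TFE (TCATGTG) and NR5A1 (AAGGTCA). The Gpnmb window holds 1 AP-1 match, TGACTCA, that begins at base 9 when the start site is counted as base 1. The letters occur in 7.81% of 32851 promoter windows. The Mmp12 window holds 1 PU.1 match on the minus strand, read here as TTCCTC, that begins 86 bases before the start site, and 28.3% of windows hold one. Neither window holds the MITF and TFE letters (3.77% of windows) or the NR5A1 letters (4.72%). A match describes the letters in the window and is not evidence of binding.

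Gpnmb encodes a transmembrane glycoprotein that macrophages make in quantity when loaded with lipid. Its log2 levels (probe set 17458439) in the 4 control arrays were 1.56, 1.02, 1.68 and 2.03, at or next to the floor. In the 4 day 7 arrays they were 7.19, 3.78, 8.98 and 7.45. Every day 7 array was above every control array, and replicate 2 was far below the other three day 7 arrays. The mean was 1.57 ± 0.42 (SD, n = 4) in control and 6.85 ± 2.19 (n = 4) at day 7, a difference of 5.28 ± 0.76 (SE; 95% interval 3.65 to 6.91) and an adjusted p of 0.0362 in limma. The SE, interval and p rest on a spread shared by the 4 groups. The SD was 0.54 at withdrawal and 0.72 at day 3, so the shared spread understates that of the day 7 arrays. With control near the floor, where most genes of absent cell types lie, the size of the difference is uncertain and may be understated. Withdrawal arrays read 9.03, 9.81 and 8.77 and day 3 arrays 7.65, 9.20, 7.76 and 8.50, so that 3 of the 4 day 7 arrays were below every withdrawal array and replicate 3 was not. Day 7 and withdrawal differed by -2.35 ± 0.82, which did not pass (limma, adjusted p = 0.187). Leaving out day 7 replicate 2 gave a difference of 6.30, and leaving out replicate 3 gave 4.57, with an adjusted p of up to 0.192 when 1 array was left out.

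Mmp12 encodes macrophage elastase, a secreted metalloproteinase that cuts elastin. Control levels (probe set 17514495) were 3.01, 3.74, 3.81 and 3.51, and day 7 levels were 6.27, 4.93, 7.15 and 5.97. The groups did not overlap, and replicates 2 and 3 were again the lowest and highest of the day 7 arrays. The mean rose from 3.52 ± 0.36 (SD, n = 4) to 6.08 ± 0.92 (n = 4), a 5.90-fold difference (log2 difference 2.56 ± 0.36 SE, limma adjusted p = 0.0362). Here too the shared spread understates that of the day 7 arrays, with an SD of 0.39 at withdrawal and 0.42 at day 3. The withdrawal difference from control was 3.79 and the day 3 difference 3.35. Day 7 against withdrawal was -1.23 ± 0.39 (limma, adjusted p = 0.14).

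Tmem71 encodes a transmembrane protein. Its control levels (probe set 17317622) were 4.39, 4.42, 4.33 and 4.13, and its day 7 levels were 4.89, 5.01, 5.24 and 5.04. The lowest day 7 array was above the highest control array, and the arrays of each group lay close together. The mean rose from 4.31 ± 0.13 to 5.04 ± 0.15 (SD, n = 4 each), by 0.73 ± 0.11 (SE; 95% interval 0.51 to 0.95; limma, adjusted p = 0.0362), which is under 2-fold. The difference from control was 1.37 at withdrawal and 0.81 at day 3. Day 7 minus withdrawal was -0.64 ± 0.11 (limma, adjusted p = 0.00959).

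Mrap encodes the accessory protein that carries the ACTH receptor to the cell surface and lets it bind ACTH. Its control levels (probe set 17326987) were 9.18, 8.92, 9.21 and 9.22, and its day 7 levels were 8.52, 8.15, 8.23 and 8.37. All 4 day 7 arrays were below all 4 control arrays. The mean fell from 9.13 ± 0.14 to 8.32 ± 0.16 (SD, n = 4 each), a 1.76-fold difference (log2 difference -0.81 ± 0.12 SE, 95% interval -1.07 to -0.56, limma adjusted p = 0.0362). Withdrawal levels were 7.43, 7.24 and 7.36, and day 3 levels were 8.52, 9.01, 8.69 and 8.55. The day 7 mean was above withdrawal by 0.97 ± 0.13 (limma, adjusted p = 0.00171). Day 7 minus day 3 was -0.37, which did not pass (limma, adjusted p = 0.493), although all 4 day 7 arrays were below every day 3 array, replicate 1 only just. RefSeq promoter windows for Mrap and Tmem71 were not used here.

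**Figure D2:**
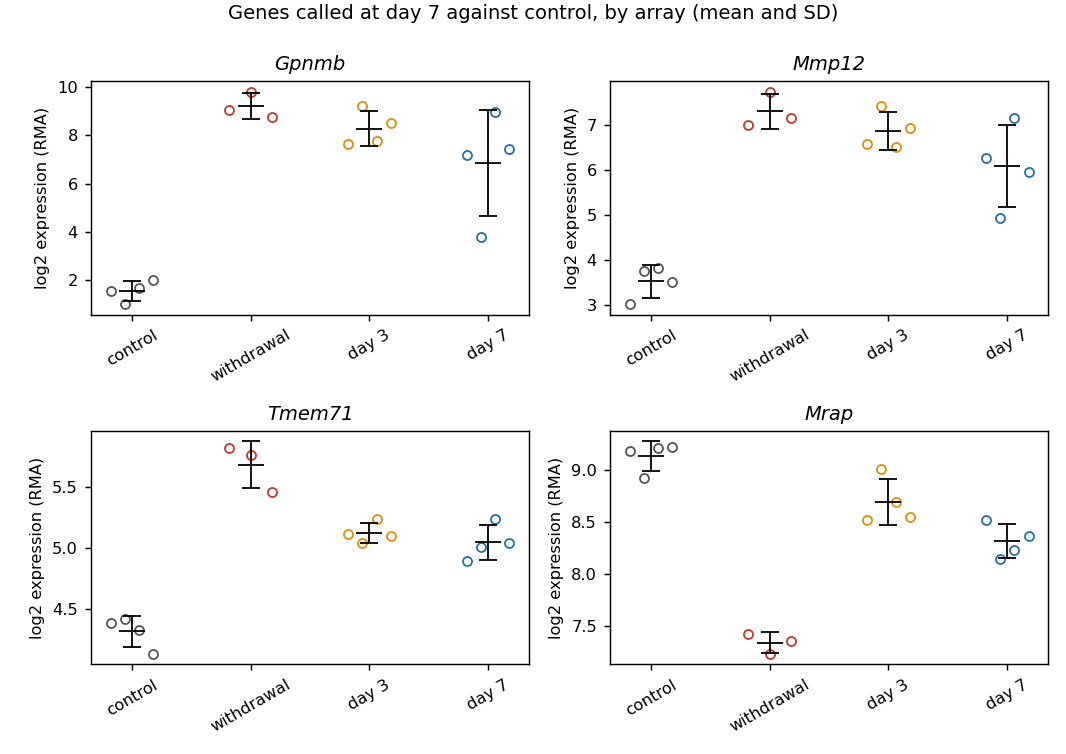
Log2 expression of the 4 genes called at day 7 against control in each array (points) of the control, withdrawal, day 3 and day 7 groups, with bars for the mean and SD. For each gene the day 7 points do not overlap the control points, and for Gpnmb the day 7 points spread from 3.78 to 8.98.

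The calls sat close to the threshold. All 4 shared the adjusted p of 0.0362, and 5 of the 8 fits that left out 1 array called 0 of them. These were the fits without control replicate 1, 3 or 4 or day 7 replicate 3 or 4 (limma; 1301, 1189, 1103, 1126 and 1325 genes at an unadjusted p under 0.05). With the 8 arrays fitted alone 0 genes passed (1243 at an unadjusted p under 0.05). The sign of each of the 4 differences held in all 18 alternatives. Since the groups of each gene do not overlap, leaving out an array could not have changed the sign.

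The other genes of the ACTH pathway lay nearer to control than Mrap. Of 13 measured genes in this list, 0 were higher and 1, Mrap itself, was lower at day 7 (limma), against 0.00466% of all genes lower. The median difference was 0.03, beside 0.0054 over all genes. Mc2r, the receptor for ACTH, had control levels of 9.47, 9.25, 9.47 and 9.51 and day 7 levels of 9.50, 9.54, 9.38 and 9.35. Its groups overlapped, with a difference of 0.02 and a 95% interval of -0.19 to 0.22. Pde8b, a phosphodiesterase that degrades cyclic AMP, read 5.96, 5.37, 6.08 and 6.22 in control and 5.87, 5.37, 4.71 and 5.08 at day 7. Its groups overlapped, and the difference of -0.65 did not pass (limma, adjusted p = 0.77). Abcb1b, a membrane transporter, differed from control by -1.59 at withdrawal (limma, adjusted p = 0.000114) and by -0.06 at day 7, with an interval of -0.39 to 0.28.

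Genes of steroid synthesis lay within narrow limits of control at day 7. Of 9 measured genes 0 were called in either direction (limma), the median difference was -0.06, and all 9 intervals lay within 1 log2 unit of 0. Of the 9 means 7 were lower at day 7 and 2 higher (8 and 1 with per-array median centring). At withdrawal 6 of the 9 were lower than control and 0 higher, with a median of -0.46, against 1.81% of all genes lower. From withdrawal to day 7, 6 of the 9 rose and 0 fell, against 0.98% of all genes higher. Star carries cholesterol into mitochondria. Its levels were 10.90, 11.01, 10.84 and 10.87 in control and 10.87, 10.86, 10.90 and 11.00 at day 7, groups that interleave. The difference was 0.00 with a 95% interval of -0.16 to 0.16. Cyp21a1, the 21-hydroxylase, read 9.54, 9.48, 9.57 and 9.64 in control, 8.09, 8.44 and 8.36 at withdrawal and 9.49, 9.42, 9.45 and 9.53 at day 7. The withdrawal arrays stood apart and the day 7 arrays overlapped control, with a day 7 difference of -0.08 (interval -0.27 to 0.10). Cyp11a1, which cleaves the cholesterol side chain, differed by -0.07 (-0.22 to 0.09), Cyp11b1, which makes corticosterone, by -0.06 (-0.27 to 0.15) and Hsd3b1 by -0.06 (-0.30 to 0.18). Cyb5a, an electron carrier, had the largest difference of the list, -0.23 (-0.45 to -0.02; limma, adjusted p = 0.796), and its day 7 arrays all lay below its control arrays. Genes named without a call, other than those followed in every case, were chosen after their values were seen.

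**Figure D3:**
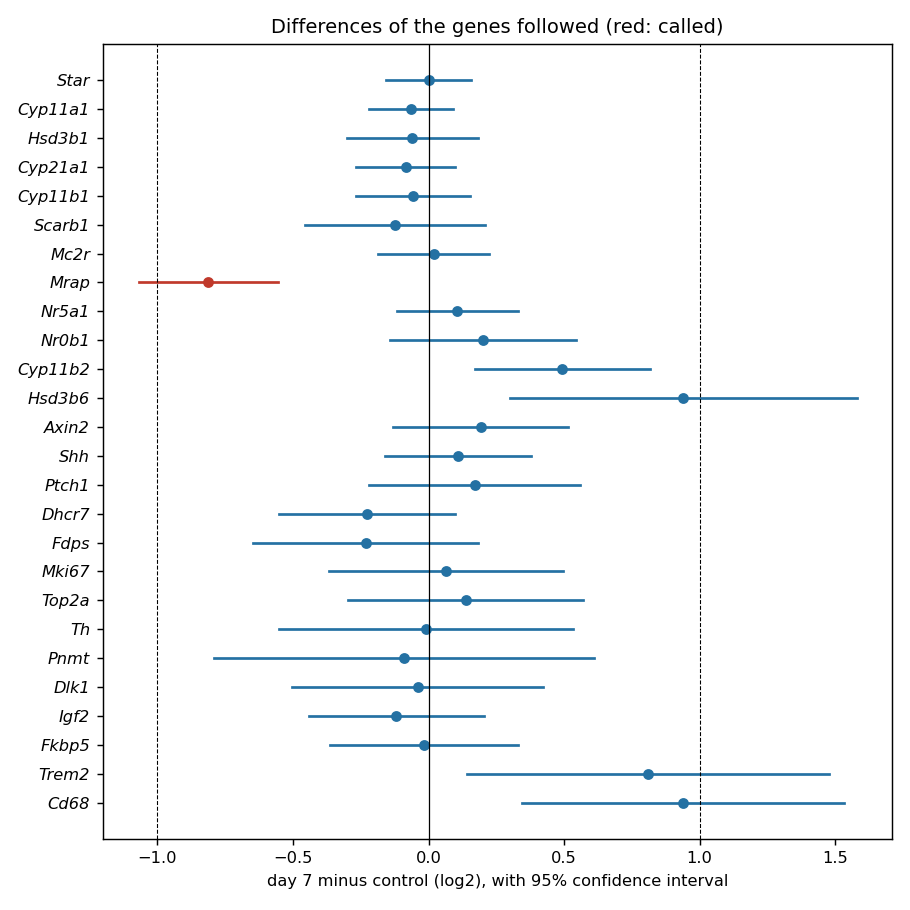
Day 7 minus control difference (log2) with its 95% confidence interval for the genes followed in every case apart from Gpnmb; the called gene Mrap is red and dashed lines mark 2-fold. The steroid enzymes Star, Cyp11a1, Hsd3b1, Cyp21a1 and Cyp11b1 have interval ends no farther from 0 than the -0.30 of Hsd3b1, while those of Cyp11b2, Hsd3b6, Trem2 and Cd68 lie above 0.

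Genes of cholesterol synthesis also lay near control at day 7. Of 16 measured genes of cholesterol synthesis 0 were called at day 7 (limma), all 16 intervals lay within 1 log2 unit, and differences ran from -0.23 (Fdps) to 0.17 (Tm7sf2). The median difference from control was -0.41 at withdrawal, 0.56 at day 3 and 0.00 at day 7. Dhcr7 encodes the enzyme of the final reduction to cholesterol. It read 8.80, 8.47, 8.61 and 8.45 in control and 6.45, 6.69 and 6.46 at withdrawal. Day 3 levels were 8.48, 8.44, 8.25 and 8.28, a difference from control of -0.22 beside the list median of 0.56. Day 7 levels were 8.08, 8.06, 8.45 and 8.85. The lowest and highest day 7 arrays bracketed the control arrays, and the difference was -0.23 (interval -0.55 to 0.10). Scarb1, the HDL receptor that supplies cholesterol esters, differed by -1.74 at withdrawal (limma, adjusted p = 6.13e-05) and by -0.12 (interval -0.46 to 0.21) at day 7.

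Export and storage of lipid held a few larger differences, none of them called. Abca1 encodes the pump that exports cholesterol to apolipoproteins. It read 7.54, 7.32, 7.81 and 7.81 in control, 5.84, 6.08, 6.17 and 6.01 at day 3 and 7.00, 7.27, 7.00 and 6.17 at day 7. All 4 day 7 arrays were below all control arrays, and replicate 4 of day 7 was level with the highest day 3 array. The day 7 difference was -0.76 ± 0.19 (interval -1.16 to -0.35; limma, adjusted p = 0.539), and the day 3 difference was -1.59 (adjusted p = 0.00337). Plin5, a coat protein of lipid droplets, read 4.22, 4.68, 5.38 and 4.68 in control and 4.46, 3.44, 3.77 and 3.10 at day 7. Only day 7 replicate 1 reached into the control range, and the difference was -1.05 (interval -1.61 to -0.49; limma, adjusted p = 0.54). In the list of fatty acid synthesis and lipid droplets, 13 of 17 means were lower at day 7, 0 were called, and the median was -0.12.

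The outer cortex, the zona glomerulosa, makes aldosterone and holds cells that renew the cortex. Of its 11 measured genes 0 were called at day 7 (limma), 8 means were higher and the median was 0.13, while 4 were called higher and 0 lower at withdrawal, where 2.49% of all genes were higher. Cyp11b2, the aldosterone synthase, read 8.64, 8.24, 8.29 and 8.03 in control, 8.89, 9.40 and 9.33 at withdrawal, and 8.74, 8.95, 8.98 and 8.52 at day 7. All but 1 of the day 7 arrays were above every control array. The difference was 0.49 (interval 0.17 to 0.82; limma, adjusted p = 0.681), so its unadjusted interval excludes 0 and the call over all genes was not made. Hsd3b6, a glomerulosa form of 3-beta-hydroxysteroid dehydrogenase, read 5.52, 6.86, 6.30 and 6.60 in control and 6.84, 7.09, 7.61 and 7.49 at day 7. Day 7 replicate 1 fell just within the control range, and the difference was 0.94 (interval 0.30 to 1.58; limma, adjusted p = 0.708). Kcnk9, a potassium leak channel, had its day 7 arrays all above its control arrays, by 0.24 on average (adjusted p = 0.874 in limma). Hedgehog signalling and capsule genes had a median of -0.00 (10 measured) and WNT signalling genes 0.13 (16 measured), with 0 called in either list.

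Cell division genes were close to control at day 7. The median difference of 25 measured mitosis genes was -0.29 at withdrawal, 0.78 at day 3 and 0.07 at day 7, with 0 called in each of the 3 comparisons with control. Top2a, the topoisomerase of replicating cells, read 4.62, 4.64, 4.41 and 4.88 in control, 5.32, 5.85, 5.72 and 5.68 at day 3 and 4.90, 4.34, 4.99 and 4.88 at day 7. The day 7 arrays overlapped control and lay below every day 3 array. Mki67, a marker of cycling cells, differed from control by 0.87 at day 3 (limma, adjusted p = 0.101) and by 0.06 at day 7 (interval -0.37 to 0.49). DNA replication genes had medians of 0.02, 0.32 and 0.00 at withdrawal, day 3 and day 7.

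**Figure D4:**
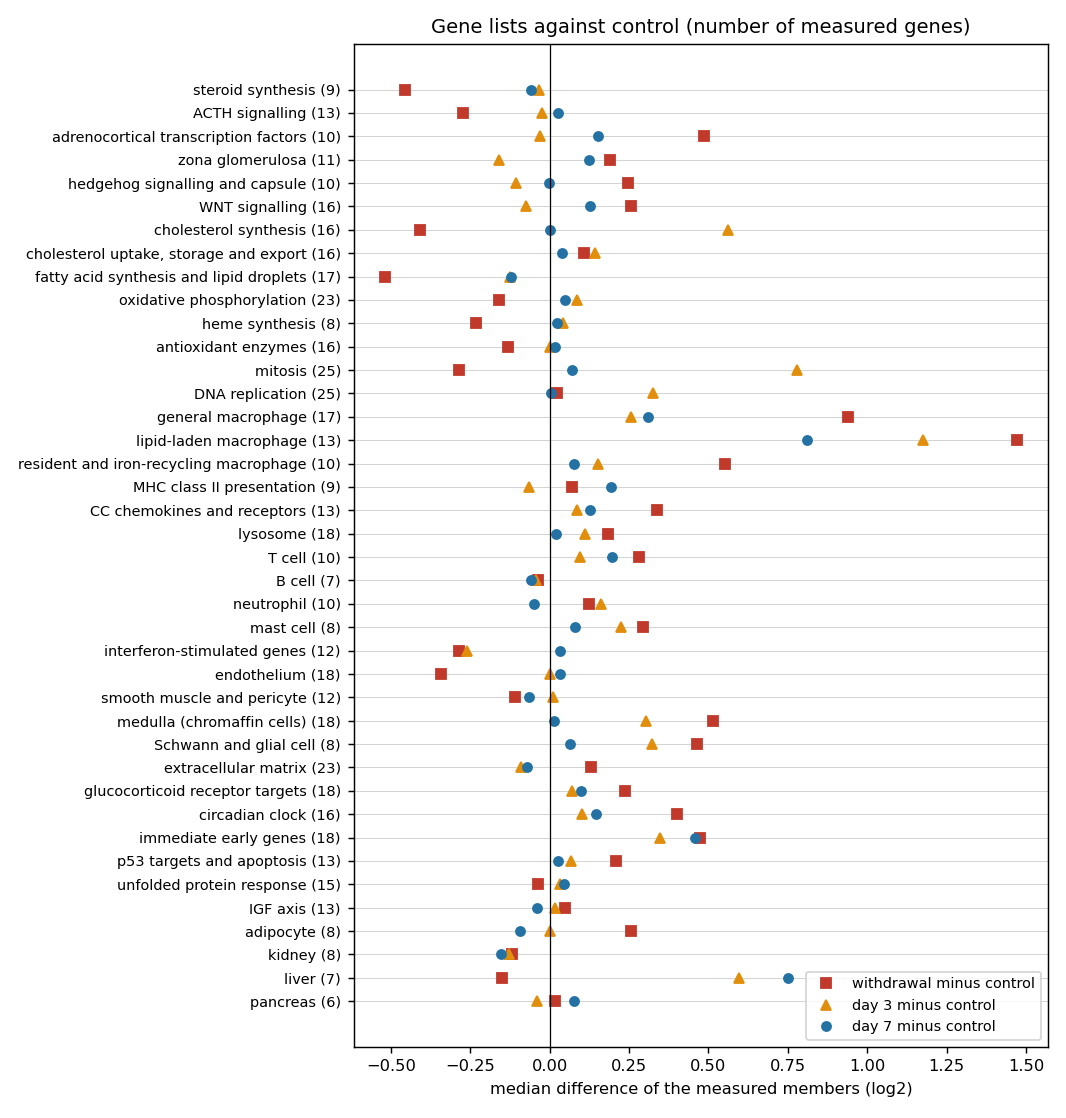
Median difference from control (log2) of the measured members of the gene lists at withdrawal (red squares), day 3 (orange triangles) and day 7 (blue circles), with the number of measured genes in parentheses. The day 7 circles lie near 0 for most lists and farthest from it for lipid-laden macrophage (0.81), liver (0.75), immediate early genes (0.46) and general macrophage (0.31).

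Genes of lipid-laden macrophages were the list with the largest day 7 median. Of 13 measured genes 2 were higher, Gpnmb and Mmp12, and 0 lower (limma), against 0.014% of all genes higher. The median difference was 0.81 at day 7, 1.18 at day 3 and 1.47 at withdrawal, beside 0.0054 over all genes at day 7. The list was chosen with earlier results for these genes known, so its count is no independent evidence. Atp6v0d2 encodes a subunit of the vacuolar proton pump of macrophages and osteoclasts. It read 1.09, 2.07, 1.35 and 1.55 in control, 7.05, 8.01 and 6.79 at withdrawal and 4.88, 1.67, 6.78 and 4.86 at day 7. Day 7 replicate 2 was within the control range and the other three arrays were far above it. The difference of 3.03 did not pass (limma, adjusted p = 0.539). Without day 7 replicate 2 it was 3.99 (limma, adjusted p = 0.0086). Without day 7 replicate 3 it was 2.29 (limma, adjusted p = 0.9), and it passed in 1 of 18 alternatives. The control mean of 1.52 lay under the floor, so these sizes are uncertain and may be understated. Trem2, a lipid-sensing receptor of macrophages, read 3.04, 3.31, 3.27 and 3.38 in control and 4.10, 3.19, 4.79 and 4.16 at day 7. Replicate 2 again lay among the controls, and the difference was 0.81 (interval 0.14 to 1.48; limma, adjusted p = 0.779). Day 7 minus withdrawal for Trem2 was -2.15 (limma, adjusted p = 0.00406). Lgals3, the carbohydrate-binding galectin-3, had all day 7 arrays above all controls, with a difference of 0.86 (limma, adjusted p = 0.54). Control replicate 2 read 2.12 and the other controls 1.515 to 1.567, under the floor, so this size is uncertain and may be understated.

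General macrophage genes had smaller differences. Of 17 measured genes 0 were called at day 7 (limma) and 15 means were higher, with a median of 0.31; at withdrawal 13 were called higher, with a median of 0.94, against 2.49% of all genes. Between withdrawal and day 7, 9 of the 17 fell and 0 rose, against 0.905% of all genes lower. Cd68, a lysosomal membrane protein of macrophages, read 6.16, 6.69, 6.38 and 6.49 in control and 7.31, 6.79, 8.21 and 7.18 at day 7. The day 7 arrays were all above control, with replicate 2 nearest to it, and the difference was 0.94 (interval 0.35 to 1.53; limma, adjusted p = 0.645). Mpeg1, a pore-forming protein, differed by 0.70, Lyz2, the macrophage lysozyme, by 0.61 and Tyrobp, a signalling adaptor, by 0.51, and in each the day 7 arrays lay above all controls. Csf1r, the receptor for the growth factor of macrophages, read 5.54, 5.19, 5.38 and 5.51 in control and 5.28, 5.53, 5.70 and 5.35 at day 7. Its groups overlapped, and its difference of 0.06 had an interval of -0.20 to 0.32. Adgre1, a surface receptor used to mark mouse macrophages, differed by 0.10 (-0.20 to 0.40). Whether these genes differ from Gpnmb and Mmp12 in their response was not tested.

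The day 7 arrays differed among themselves in these genes. Summed linear levels of the 17 general macrophage genes were 2107, 1738, 2637 and 1836 in day 7 replicates 1 to 4, against 1443 to 1599 in control, 3046 to 3964 at withdrawal and 1916 to 2816 at day 3. For the 13 lipid-laden macrophage genes the day 7 sums were 1772, 1235, 2690 and 1595, against 1262 to 1433 in control, 2782 to 3737 at withdrawal and 2041 to 2874 at day 3. Replicate 2 was lowest and replicate 3 highest in both lists, and in the lipid-laden list replicate 2 was below all 4 controls. On the mean log2 level of that list replicate 2, at 4.75, was above all 4 controls, which ran from 4.39 to 4.59. No general or lipid-laden macrophage gene had both group means under the floor. The part of macrophage number in the differences of Gpnmb and Mmp12 was not tested.

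Among resident and iron-recycling macrophage genes 0 of 10 were called and the median was 0.08. Vcam1, an adhesion molecule, had its day 7 arrays all above control, by 0.86 (limma, adjusted p = 0.539). Slc40a1, the iron exporter ferroportin, differed by 0.87 (limma, adjusted p = 0.787), with overlapping groups. Other surface genes of macrophages and other leukocytes, chosen after their values were seen, were higher without being called. Cd84, a receptor of the SLAM family, read 2.02, 3.00, 2.71 and 2.98 in control and 4.27, 3.32, 4.97 and 3.93 at day 7 (difference 1.44; limma, adjusted p = 0.539). Its groups did not overlap. Lilrb4a, an inhibitory immune receptor, differed by 1.24 and the aminopeptidase Anpep by 1.03, both with an adjusted p of 0.539 in limma and with groups that did not overlap. Il7r, the interleukin 7 receptor, read 1.45, 1.48, 1.86 and 0.82 in control and 2.81, 2.21, 5.04 and 2.82 at day 7. All day 7 arrays were above control and replicate 3 was the highest, for a difference of 1.82 (limma, adjusted p = 0.723), or 1.21 without replicate 3. Its controls lay under the floor, so this size is uncertain and may be understated. In the T cell list, which holds Il7r, 8 of 10 genes had means under the floor in both groups.

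Aldh1a1 had the smallest adjusted p outside the called genes among those singled out here. It encodes a retinaldehyde dehydrogenase, and it read 6.73, 7.28, 6.97 and 7.04 in control, 9.66, 9.44 and 8.18 at withdrawal, 7.70, 8.45, 6.89 and 7.12 at day 3 and 9.01, 8.93, 9.63 and 8.62 at day 7. The day 7 arrays were above all control and all day 3 arrays and interleaved with the withdrawal arrays. The difference from control was 2.04 ± 0.35 (interval 1.31 to 2.78), 4.12-fold, which did not pass (limma, adjusted p = 0.127). Against day 3 it was 1.51 (limma, adjusted p = 0.3) and against withdrawal -0.04 (adjusted p = 0.981). The neighbouring family member Aldh1a7 read 4.42, 6.32, 4.33 and 4.39 in control and 6.53, 6.05, 6.46 and 5.61 at day 7. Control replicate 2 reached the day 7 level, and the difference was 1.29 (limma, adjusted p = 0.762). Probes of such close relatives can share sequence, so their signals may not be separate.

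Immediate early genes, which stimulated cells transcribe within minutes, had day 7 means above control for 18 of 18 measured members (17 with quantile normalization). None was called, the median difference was 0.46 at day 7, 0.35 at day 3 and 0.47 at withdrawal, and 3 members, Atf3, Ier2 and Fosl2, had all day 7 arrays above all controls, against 1.75% of all genes. Atf3, a stress-induced transcription factor, read 1.91, 3.13, 2.98 and 3.02 in control and 3.97, 3.98, 3.81 and 3.85 at day 7. The day 7 arrays lay within a narrow band above control, with a difference of 1.14 (interval 0.55 to 1.74; limma, adjusted p = 0.539). Fos, a subunit of AP-1, differed by 0.53 and Egr1, a zinc finger factor, by 0.86, both with overlapping groups. Nr4a1, an orphan nuclear receptor that ACTH induces, read 6.64, 8.39, 7.26 and 7.94 in control and 9.13, 8.57, 9.56 and 9.56 at day 7. Its groups did not overlap, and the difference of 1.65 had an interval of 0.55 to 2.75 (limma, adjusted p = 0.69). Its relatives Nr4a2 and Nr4a3 differed by 1.25 and 0.62 (limma, adjusted p = 0.77 and 0.759). Sik1, a kinase gene induced through cyclic AMP, had all day 7 arrays above control, by 1.46 (limma, adjusted p = 0.64).

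Clock genes, which cycle through the day, differed in both directions without a call in any of 16 measured. Arntl, which encodes the clock activator BMAL1, read 6.50, 4.24, 6.10 and 6.26 in control and 5.16, 5.16, 3.70 and 4.14 at day 7. Control replicate 2 was apart from the other controls and within the day 7 range, and the difference was -1.23 (interval -2.31 to -0.16; limma, adjusted p = 0.787). Npas2, which encodes a partner of BMAL1, differed by -1.17, with control replicate 2 again low at 2.03, and by -1.81 without that array. Without day 7 replicate 3 the Npas2 difference was -0.79. Genes of the opposite phase were higher on average: the repressor Nr1d2 by 0.72, the transcription factor Dbp by 0.71, the repressor Bhlhe41 by 0.63 and the repressor Ciart by 0.85 (limma, adjusted p from 0.393 to 0.842). Without day 7 replicate 4 the difference of Ciart was 0.50. Control replicate 2 was the highest control array for these 4 genes. The hour at which each gland was taken is not in the labels used here, and its part in these differences, or in those of the immediate early genes, was not tested. Per2 is not analysed here. Of 18 genes that the glucocorticoid receptor induces 0 were called, at a median of 0.10, and Fkbp5, a sensitive target, differed by -0.02 (interval -0.36 to 0.33). At withdrawal 0 of the 18 were called as well, at a median of 0.24, and Fkbp5 differed by 0.21 (limma, adjusted p = 0.62). At day 7, 13 means were higher than control and 5 lower. Summed linear levels of the list ran from 2065 to 2226 in control and from 2290 to 2647 at day 7.

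**Figure D5:**
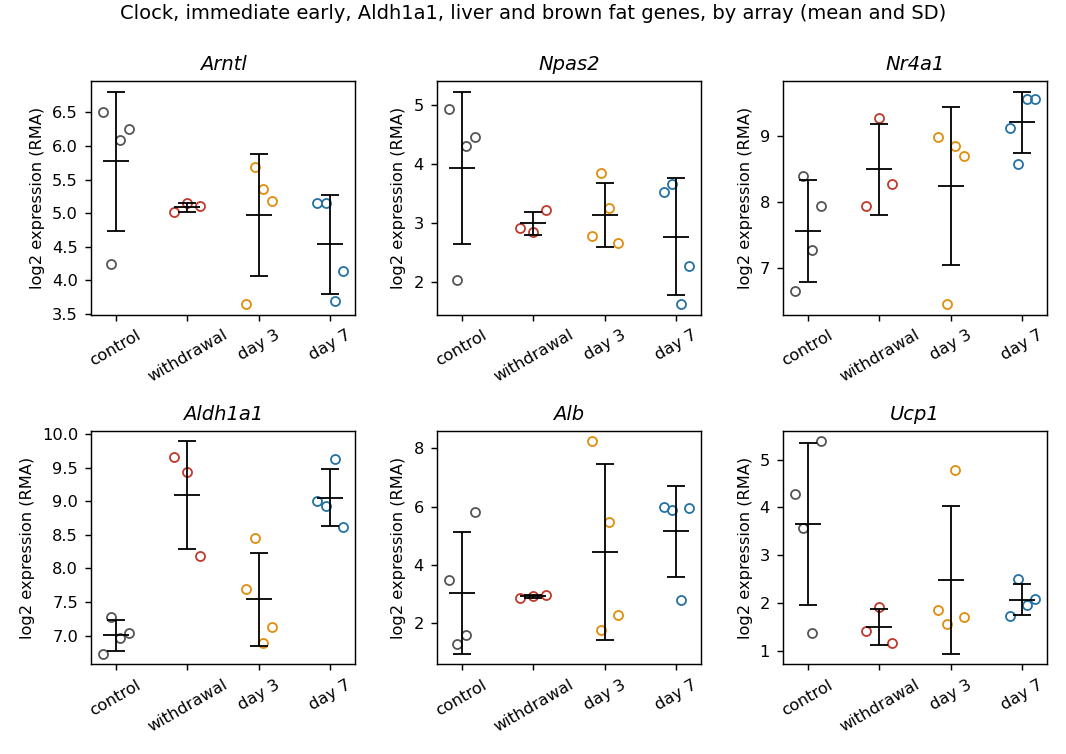
Log2 expression of Arntl, Npas2, Nr4a1, Aldh1a1, Alb and Ucp1 in each array (points) by group, with bars for the mean and SD. Day 7 points do not overlap control points for Nr4a1 and Aldh1a1; for Alb and Ucp1 the points of single groups spread over several log2 units.

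Liver and brown fat genes varied from array to array. Alb, the serum albumin of hepatocytes, read 3.49, 1.28, 1.59 and 5.82 in control, 8.24, 1.78, 5.48 and 2.27 at day 3 and 5.98, 5.88, 2.80 and 5.94 at day 7. High and low arrays occurred in each of these groups, and the difference of 2.11 had an interval of -0.61 to 4.82 (limma, adjusted p = 0.884). Fabp1, the fatty acid binding protein of liver and gut, read 1.27, 1.20, 0.80 and 5.03 in control and 6.47, 4.76, 1.70 and 6.19 at day 7, and for both genes control replicate 4 was the highest control and day 7 replicate 3 the lowest day 7 array. The summed level of the 7 measured liver genes ran from 135.8 to 353.6 in control, 245.4 to 272.8 at withdrawal, 101.3 to 1082 at day 3 and 191.4 to 508.0 at day 7, and 1 of the 7 had both means under the floor. Ucp1, the uncoupling protein of brown fat, read 4.28, 3.58, 1.37 and 5.38 in control and 1.73, 2.51, 1.95 and 2.09 at day 7. Control replicate 3 was lower than every day 7 array and the other controls were higher, for a difference of -1.58 (limma, adjusted p = 0.83). It was -1.01 without control replicate 4 and -2.35 without control replicate 3. Cidea, a lipid droplet protein of brown fat, differed by -1.10. The summed adipocyte level overlapped, from 1099 to 1326 in control and from 1065 to 1293 at day 7. No liver or adipocyte gene was called, and the part of other tissue in the remaining differences was not tested.

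Remaining lists held few differences. The 18 medulla genes had a median of 0.51 at withdrawal, 0.30 at day 3 and 0.01 at day 7, and all 18 day 7 intervals lay within 1 log2 unit; Th, the first enzyme of catecholamine synthesis, differed by -0.01 (interval -0.55 to 0.53). Endothelial genes had a median of -0.34 at withdrawal and 0.03 at day 7. Apln, a peptide of endothelial tip cells, differed by 1.12 (interval 0.40 to 1.83; limma, adjusted p = 0.672), with groups that overlapped. In extracellular matrix genes 16 of 23 means were lower at day 7 and 0 were called. Col1a1, a chain of type I collagen, had all day 7 arrays below control and a difference of -0.45 (limma, adjusted p = 0.811), and Col3a1, of type III collagen, differed by -0.60 with overlapping groups (-0.39 without day 7 replicate 1). Oxidative phosphorylation genes had all 23 intervals within 1 log2 unit, and differences no larger than 0.17.

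A few further genes lay over 2-fold from control without a call and were chosen after their values were seen. Mia, a small secreted protein, read 4.29, 3.46, 2.86 and 3.27 in control and 1.74, 2.30, 1.37 and 1.87 at day 7. The groups did not overlap, and the difference was -1.65 (limma, adjusted p = 0.539). The day 7 mean of 1.82 lay under the floor, so this size is uncertain and may be understated. Mean levels of Mia were 1.95 at withdrawal and 3.40 at day 3, where the difference from control was -0.07. Frzb, a secreted WNT antagonist, read 4.27, 4.00, 4.20 and 4.76 in control and 2.71, 2.64, 2.47 and 3.20 at day 7, with no overlap (difference -1.55; limma, adjusted p = 0.545). Ces2e, a carboxylesterase, read 3.00, 2.16, 2.47 and 3.05 in control, 1.93, 2.41 and 2.54 at withdrawal and 4.35, 3.53, 4.12 and 4.12 at day 7. Its day 7 arrays were above every control and every withdrawal array; the difference from control was 1.36 (limma, adjusted p = 0.539) and that from withdrawal 1.74 (adjusted p = 0.0207). Ly6m, a member of the Ly6 surface protein family, differed from control by 1.67 (limma, adjusted p = 0.77), with overlapping groups. Vnn3, of the pantetheinase family, differed by -1.53 (limma, adjusted p = 0.64), also with overlap.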

How the data were processed

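RNA of whole adrenal glands was hybridised to one-colour Affymetrix arrays as biotin-labelled targets, per the labels' protocols. The table deposited by the authors holds log2 RMA values from oligo, per the submitters' processing notes, for 32736 probe sets, with software versions not given in the sources used here. In the platform annotation, 1 symbol was given to 22399 probe sets, which were kept, several to 1607 and none to 8730. RefSeq (GRCm38.p6) held the Entrez identifier of 22261 of those kept and not of 138, and changed 0 symbols. Where a gene had several probe sets (807 genes), the brightest on average was taken, which gave 21439 genes.

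Groups came from the sample titles. The test was limma's (version 3.58.1, R 4.3.3; lmFit and eBayes), with 15 arrays and 4 groups in 1 model (11 residual degrees of freedom), Benjamini-Hochberg adjustment over all genes and a threshold of 0.05. Intervals are limma's 95% intervals, and they and the SE use a spread per gene shared by the 4 groups. Errors are SD for levels and SE for differences. The 42 gene lists are described by counts and medians, with no test; 546 of 608 listed members were measured. Named genes are the called genes (up to 12 in each direction with groups apart and a mean of at least 3), up to 4 called members of each list and 30 genes followed in every case, 27 of them measured. The members, the lists and the tests were chosen with earlier results of these data known. The test was run on simulated data first. Scaling, filters, probe set choice, variance models, a replicate block and leaving out each array were tried as alternatives.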

Additional observations from a re-analysis of the deposited data

Results flagged for a closer look

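In groups of 4 arrays, a value was marked when its gap to the nearest other array exceeded Dixon's critical share of the range of the group, and 24 of 374 groups met this, where chance alone marks about 1 in 20. All values are log2 levels.

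Among the called genes, control replicate 2 was low for Mrap at 8.917, with the other controls from 9.18 to 9.216, and the fall at day 7 was larger without it. Control replicate 2 was marked most often. It was high for Aldh1a7 at 6.321, Ciart at 3.176, Dbp at 6.131 and Lgals3 at 2.12, and low for Vnn3 at 2.737, Sqle at 5.437, Cd36 at 7.651 and the mean of the IGF axis list at 5.993. Control replicate 1 was low for Atf3 at 1.912 and Abcb1b at 9.858 and high for the mean of the mast cell list at 2.51. Control replicate 4 was high for Fabp1 at 5.034 and low for the mean of the interferon-stimulated genes at 3.676.

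In the day 7 group, replicate 2 was low for Top2a at 4.339, replicate 3 was low for Alb at 2.797 and high for Lpl at 7.63, and replicate 4 was high for Kcnk9 at 8.52 and for the mean of the endothelium list at 6.094. In the day 3 group, replicate 2 was low for Nr4a1 at 6.444 and Lpl at 6.684, replicate 3 was high for the brown fat genes Ucp1 at 4.792 and Cidea at 4.738, and replicate 1 was low for Slc40a1 at 3.632.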

How the results depend on the processing

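The count of 3 higher and 1 lower genes was the same with per-array median centring, quantile normalization, a filter on dim genes (10719 genes tested), the probe set of largest variance, the mean of a gene's probe sets and, as an alternative chosen after seeing the data, all probe sets fitted together. In that last fit 7 probe sets passed (limma, adjusted p = 0.044), of which 3 carry no single symbol. The 8 arrays alone gave 0 higher, 0 lower and 0 at least 2-fold (limma; 1243 genes at an unadjusted p under 0.05). Trend and robust options gave 1 higher (Mmp12) and 1 lower (Mrap), with 1 at least 2-fold against 2 in the reported fit. Array weights gave 2 higher, 1 lower and 1 at least 2-fold, Gpnmb having an adjusted p of 0.0529. The replicate block gave 0 higher, 0 lower and 0 at least 2-fold with all arrays (1204 at an unadjusted p under 0.05) and the same with the 8 arrays (1218); deviations of same-numbered control and day 7 arrays from their group means correlated at -0.0756, -0.0694, 0.0727 and -0.0138, so the numbers were not taken as pairs. Leaving out 1 array at a time gave 0 to 4 higher, 0 to 5 lower and 0 to 4 at least 2-fold. Without control replicate 4, day 7 replicate 3 or day 7 replicate 4, 0 genes passed; without control replicate 2, 9 did; without day 7 replicate 2, 3 did (Atp6v0d2, Gpnmb and Mmp12); without control replicate 1 or control replicate 3, 1 did in each, and that gene was none of the 4; without day 7 replicate 1, 3 did. The cause of these changes was not tested. No called difference changed sign in any of these fits, and with groups that do not overlap, leaving out an array could not have changed it. Over the 18 alternatives the adjusted p of the 4 genes ran from 2.7e-05 to 0.423 for Gpnmb, 0.00129 to 0.551 for Mmp12, 0.0197 to 0.673 for Tmem71 and 0.0165 to 0.423 for Mrap. Of the list medians under these settings, 744 moved by less than the spread between arrays and 8 by more. Signal near the floor of the arrays limits how large a difference can read.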

Other observations

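The fit on all probe sets also called 3 probe sets without a single gene symbol, and the 3 were lower at day 7 than in control. Probe set 17487805 fell from a control mean of 6.22 to a day 7 mean of 5.21, with withdrawal at 4.40 and day 3 at 5.55. Probe set 17393554 had a control mean of 3.34 and a day 7 mean of 2.42 (withdrawal 2.59, day 3 2.80). Probe set 17491626 went from 1.27 to 0.61, both at the floor of the arrays. The same fit left probe set 17529575, also without a single symbol, just short of the threshold (limma, adjusted p = 0.0717), with a mean of 5.21 in control and 6.02 at day 7 (6.86 at withdrawal).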
